A study of Saccharomyces cerevisiae x Saccharomyces kudriavzevii and Saccharomyces cerevisiae with 12 samples.

Results

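The measure described is the temperature dependence of the expression difference between the wine hybrid VIN7 and the S. cerevisiae wine strain Lalvin T73, taken as the log2 ratio of VIN7 over T73 after fermentation at 12 °C, minus the same ratio after fermentation at 28 °C. VIN7 is a hybrid between S. cerevisiae and S. kudriavzevii. The study describes it as an almost perfect allotriploid, with a diploid S. cerevisiae and a haploid S. kudriavzevii genome, that has lost the S. kudriavzevii copy of chromosome III. Some genes of chromosome VII are also described there as having only S. cerevisiae alleles. Cells of both strains came from Tempranillo must and were taken at the beginning of the stationary phase. The arrays carried PCR products of the ORFs of S. cerevisiae S288c, so S. cerevisiae and S. kudriavzevii transcripts of a gene are read together by 1 spot. VIN7 had 3 arrays at 12 °C and 3 arrays at 28 °C, named replicates A, B and C, out of 12 arrays that also covered the hybrid Lalvin W27. On each array VIN7 cDNA (Cy3) competed with cDNA of T73 grown at the same temperature (Cy5), and no dyes were swapped. Of the 6178 ORFs on the arrays, 6158 had a value on at least 2 arrays at each temperature and were used.

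The control differed between temperatures, since each 12 °C ratio was taken against T73 at 12 °C and each 28 °C ratio against T73 at 28 °C. A difference between the ratios is therefore a difference in how both strains respond to temperature, and a higher value in VIN7 cannot be told apart from a lower value in T73. The labels call the arrays biological replicates while the methods describe cells from 2 fermentations, so the p-values measure only the spread between these arrays, which may be technical. The sign of the deposited ratio was not stated beside the values. Hybrid over T73, used throughout, is the likely direction, from the dyes and from directions the paper states at 12 °C. These are for the ORFs YMR210W (in Lalvin W27) and YIR007W (in VIN7).

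S. kudriavzevii grows well in the cold, whereas S. cerevisiae prefers warmth, and hybrids of both species ferment at low temperature. Cold makes membranes more rigid and slows translation, and yeast cells respond with changes in lipid composition, ribosomes and transport. Fermenting cells also make the aroma of the wine. Acyltransferases join ethanol with acyl-CoA to give ethyl esters, and glycosidases and glucanases release terpenes from sugar conjugates of the grape.

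The 6 arrays differed in spread and in how well they agreed. The SD across ORFs was 1.25, 1.59 and 0.787 on the log2 scale for 12 °C replicates A, B and C, against 0.856, 1.59 and 1.43 for the 28 °C replicates. Each array held values for 5815 to 6168 ORFs. Across ORFs, the 12 °C arrays had a Pearson r of 0.54 (A and B), 0.26 (A and C) and 0.22 (B and C). The 28 °C arrays had an r of 0.17 (A and B), 0.06 (A and C) and 0.06 (B and C). Agreement was thus lower among the 28 °C arrays. Their replicate C had an r of -0.60 with 12 °C replicate A, of -0.38 with 12 °C replicate B and of 0.10 with 12 °C replicate C. ORFs are not independent replicates, and these r values are descriptions. The direction of replicate C at 28 °C is not settled, and the main results are given as deposited, without that array and with its sign turned.

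No ORF passed the test between temperatures. In limma over all 12 arrays with Benjamini-Hochberg adjustment, 0 of the 6158 ORFs (0%) had an adjusted p under 0.05, and the lowest adjusted p was 0.073. At an unadjusted p under 0.05, 531 ORFs (8.62%) had a higher ratio of VIN7 over T73 at 12 °C than at 28 °C and 685 (11.1%) a lower one. Without replicate C at 28 °C, 0 of 5794 ORFs passed the adjusted test, and 253 (4.37%) were higher and 381 (6.58%) lower at the unadjusted threshold. With the sign of that array turned, 0 passed as well, with 88 (1.43%) higher and 157 (2.55%) lower. Both directions together then made 3.98% of ORFs, below the fraction of 0.05 that this threshold gives on average where nothing differs. Turning the sign of that array thus changed the number of ORFs at this threshold more than leaving out any single VIN7 array did. The sign of no other array was turned. The difference between more lower and more higher ORFs also depended on centring: with each array recentred on its median, 643 were higher and 582 lower, and the median difference over all ORFs was -0.04 in place of -0.14 on the log2 scale. Without 12 °C replicate A the counts were 299 higher and 408 lower, and without 12 °C replicate B 286 higher and 463 lower.

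A replicate letter shared by both temperatures is not explained in the labels. As deposited, deviations of same-letter arrays from their group means correlated, with the largest r, 0.57, for the C arrays. Deviations within a group cancel out, so these r values are tied to each other and do not establish a pairing. The C arrays themselves had a Pearson r of 0.10, and deviations of 12 °C replicate A and 28 °C replicate B had an r of 0.15. With a term for the letter within each hybrid, limma called 113 ORFs higher (1.84%) and 55 lower (0.893%) at 12 °C. With that term and the sign of replicate C at 28 °C turned, it called 0 ORFs, with 78 higher and 134 lower at an unadjusted p under 0.05. Leaving out 12 °C replicate C, the array with the smallest spread, also gave calls, 74 higher (1.22%) and 14 lower (0.231%) of 6057 ORFs. Of the 168 calls with the letter and the 88 calls without that array, 69 were shared, which is 41.1% and 78.4% of each list. Of the 168 calls, 21 had an unadjusted p under 0.05 in the same direction once the sign of replicate C was turned.

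The spread between arrays was close in size to the differences. Over the 5716 ORFs with a value on all 6 arrays, the SD of the 3 arrays had a median of 0.736 at 12 °C and 0.845 at 28 °C. Over all 6158 ORFs, the standard error of the difference had a median of 0.687 and the difference itself a median size of 0.838 on the log2 scale. That size was 0.672 without replicate C at 28 °C and 0.486 with its sign turned. The middle 95% of differences ran between -2.31 and 2.68 as deposited and between -1.67 and 1.64 with the sign turned. Large differences of single ORFs were thus common, and fewer with the sign of that array turned.

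Under the 2-fold rule of the study, applied here to the difference of the group medians, 1060 ORFs (17.2%) were at least 2-fold higher and 1343 (21.8%) at least 2-fold lower at 12 °C. Most of these 2403 ORFs had arrays that overlapped between temperatures: 382 of the higher and 548 of the lower ones had all 12 °C values on the same side of all 28 °C values, and 1473 did not. Over all ORFs, arrays did not overlap for 549 higher (8.92%) and 748 lower (12.1%). Without replicate C at 28 °C, 763 were 2-fold higher and 1212 lower, and 598 higher and 871 lower had arrays that did not overlap, where 2 arrays were set against 3. With the sign of that array turned, the 2-fold counts were 774 higher (12.6%) and 719 lower (11.7%), and the counts without overlap were 161 higher (2.61%) and 291 lower (4.73%). Only 59 higher and 165 lower ORFs with a value on all 6 arrays kept their arrays apart in the same direction under both signs. Without overlap, leaving out 12 °C replicate C gave 1110 higher and 1368 lower ORFs, leaving out 28 °C replicate B gave 1036 and 1123, and leaving out 28 °C replicate A gave 808 and 1225, each with 1 array fewer to overlap.

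**Figure D1:**
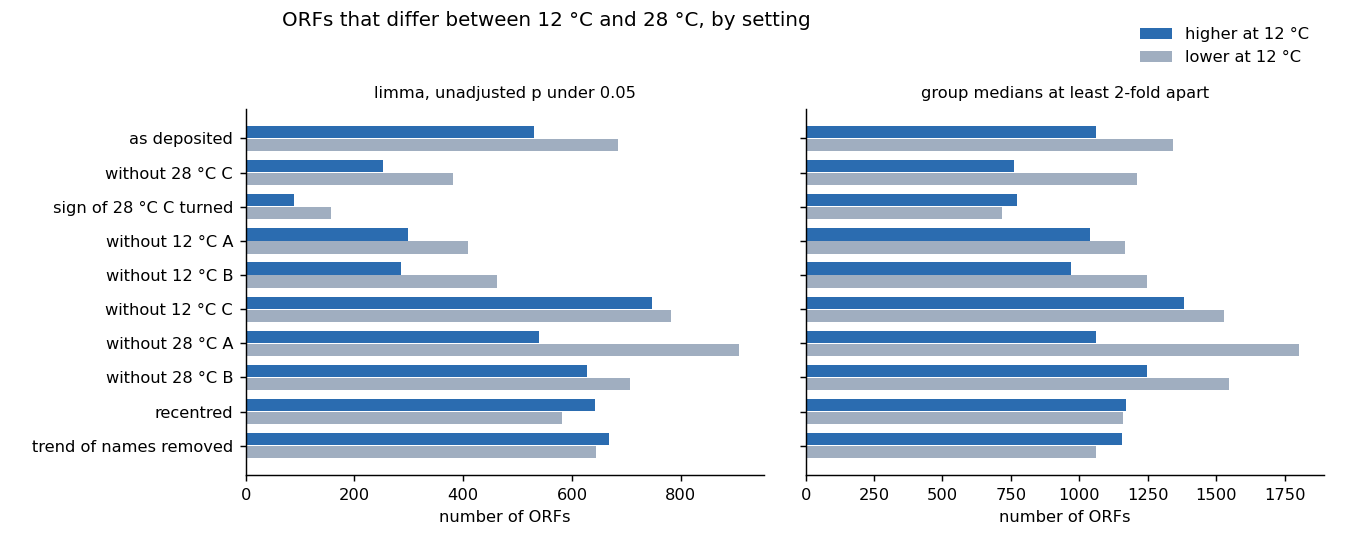
Number of ORFs (horizontal axes, starting at 0) with a higher (blue) or lower (grey) ratio of VIN7 over T73 at 12 °C than at 28 °C, for limma at an unadjusted p under 0.05 (left) and for group medians at least 2-fold apart (right). Each row is a setting; turning the sign of replicate C at 28 °C gives the lowest limma counts shown, 88 higher and 157 lower, against 531 and 685 as deposited.

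As deposited, the ORFs that differed 2-fold from T73 at 12 °C held a share of 28 °C ORFs near that among all ORFs. By group medians, 851 ORFs were up regulated at least 2-fold in VIN7 at 12 °C and 699 at 28 °C, and 105 were up at both temperatures, which is 12.3% of the 12 °C list and 15.02% of the 28 °C list; among all 6158 ORFs, 11.3% were up at 28 °C. In the other direction, 729 ORFs were down regulated at 12 °C, 334 were so at 28 °C, and 52 at both (7.13% and 15.6%), where 5.42% of all ORFs were down at 28 °C. A further 71 ORFs were up at 12 °C and down at 28 °C, and 72 were down at 12 °C and up at 28 °C. The shared lists thus stood beside opposite lists of similar length. The largest class, 3845 ORFs (62.4%), stayed within 2-fold of T73 at both temperatures.

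The array of unsettled direction carried much of this picture. With its sign turned, 178 ORFs were up at both temperatures (20.9% of 851 at 12 °C and 41.0% of 434 at 28 °C) and 154 were down at both (21.1% of 729 and 42.3% of 364). Opposite directions were then found for 10 ORFs up and 12 ORFs down at 12 °C. Without that array, 192 were up at both (25.5% of 753 and 22.7% of 845) and 107 down at both (15.05% of 711 and 33.2% of 322), with 24 and 27 in opposite directions. Of all ORFs, 7.05% were up and 5.91% down at 28 °C with the sign turned, and 14.6% and 5.56% without the array. The group means at 12 °C and 28 °C had a Pearson r of -0.08 across ORFs as deposited, 0.24 without replicate C and 0.47 with its sign turned. Turning the sign did not bring replicate C closer to its own group. Its r of 0.06 with each of 28 °C replicates A and B became negative. The median SD of the 28 °C arrays, over ORFs with 6 values, rose from 0.845 to 0.899. The sign was turned because of that array's negative r with 12 °C replicates A and B. Higher r, longer shared lists and smaller differences thus follow in part from that choice, and are no test of agreement between temperatures. The plot of both medians changes in the same way, from a round cloud to one drawn out along the line of equal ratios.

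**Figure D2:**
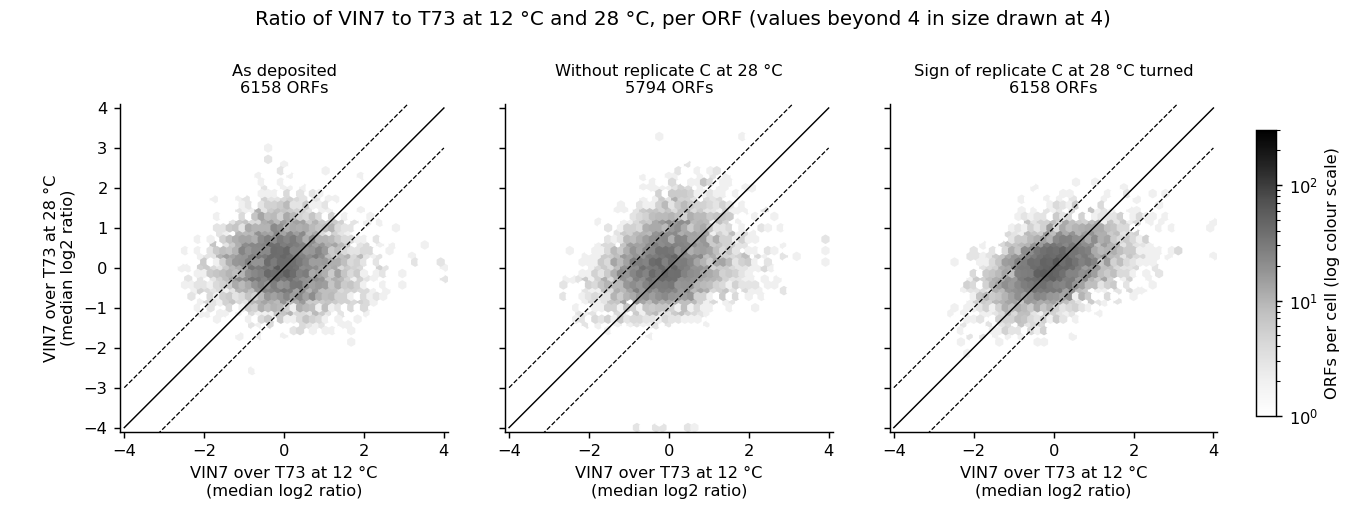
Median log2 ratio of VIN7 over T73 at 12 °C (horizontal axis) and at 28 °C (vertical axis) per ORF, with darker cells for more ORFs; the solid line marks equal ratios and the dashed lines a 2-fold difference. As deposited, 105 ORFs were up and 52 down at both temperatures, against 178 and 154 with the sign of replicate C at 28 °C turned. That rise follows in part from the choice to turn an array with negative r to 12 °C replicates A and B.

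A stricter reading asked for a 2-fold change on every array of a temperature. Of the 5716 ORFs with 6 values, 47 were up and 135 down on all 3 arrays at 12 °C, against 60 up and 19 down on all 3 arrays at 28 °C. Both temperatures together held 3 ORFs up and 1 ORF down. Of the 135 ORFs down at 12 °C, 32 (23.7%) stayed within 2-fold of T73 on each 28 °C array, and of the 47 up at 12 °C, 6 did (12.8%). In the other direction, 19 of the 60 ORFs up at 28 °C and 7 of the 19 down at 28 °C stayed within 2-fold on each 12 °C array. The share of all 5716 ORFs that stayed within 2-fold on each array of a temperature was not set beside these counts. On 28 °C replicates A, B and C, 11.98%, 40.38% and 45.54% of all ORFs were beyond 2-fold. ORFs within 2-fold at the other temperature therefore do not show regulation at 1 temperature only. With the sign of replicate C turned, 20 ORFs were up and 38 down on all 28 °C arrays, of which 1 and 9 were so at both temperatures. Down regulation on every array was thus more frequent at 12 °C than at 28 °C under both signs, while the 28 °C arrays also agreed less with each other. These counts carry no test.

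The ORFs are given by systematic names, which state the chromosome (the letter after Y), the arm (L or R) and the strand (W or C). Annotation to pair them with gene symbols was not used here, so most ORFs have no function stated. The ORFs below were chosen for low unadjusted p-values among those with 6 values whose arrays did not overlap under either sign of replicate C, and their values are descriptions of that choice.

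YMR009W, on the right arm of chromosome XIII, had log2 ratios of 2.77, 3.12 and 3.18 at 12 °C (replicates A, B and C), against -0.61, 0.41 and -0.85 at 28 °C. All 12 °C arrays gave a large excess in VIN7, and the 28 °C arrays lay on both sides of no difference. The mean was 3.03 ± 0.22 at 12 °C and -0.35 ± 0.67 at 28 °C (SD, n = 3 each), a difference of 3.37 with a standard error of 0.54 and a 95% interval between 2.21 and 4.54. The limma adjusted p was 0.073 as deposited and ranged between 0.036 and 0.999 over the alternatives, with a difference between 2.81 and 3.76. YBL075C had the same limma adjusted p as deposited, with a difference of -4.43, but was not among the ORFs chosen as described above.

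YHR162W, on the right arm of chromosome VIII, had log2 ratios of 2.89, 5.32 and 3.54 at 12 °C, against 0.86, 0.59 and 0.02 at 28 °C. The lowest 12 °C array was above the highest 28 °C array, though the 12 °C values spread more widely than those of YMR009W. The difference was 3.43 with a standard error of 0.64 (95% interval between 2.06 and 4.79), and the limma adjusted p was 0.17 as deposited. Its difference was nearly the same, 3.44, with the sign of replicate C at 28 °C turned, since that array was close to 0.

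YDL223C, on the left arm of chromosome IV, had log2 ratios of -1.71, -3.11 and -3.26 at 12 °C, against -0.05, 1.01 and 0.22 at 28 °C. It was below T73 on all 12 °C arrays and near or above it at 28 °C. The difference was -3.09 with a standard error of 0.65 (95% interval between -4.49 and -1.69), with a limma adjusted p of 0.17.

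YMR041C, on the right arm of chromosome XIII, had log2 ratios of -1.44, -2.61 and -1.93 at 12 °C, against 0.32, 0.28 and 0.58 at 28 °C. The 28 °C arrays were close to each other, and all 12 °C arrays lay below them. The difference was -2.39 with a standard error of 0.55 (95% interval between -3.56 and -1.22), with a limma adjusted p of 0.17. Each of these 4 ORFs passed the adjusted test with the letter term within each hybrid (adjusted p between 0.038 and 0.045) and none did without replicate C at 28 °C (0.40 each) or with its sign turned (between 0.53 and 0.97).

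**Figure D3:**
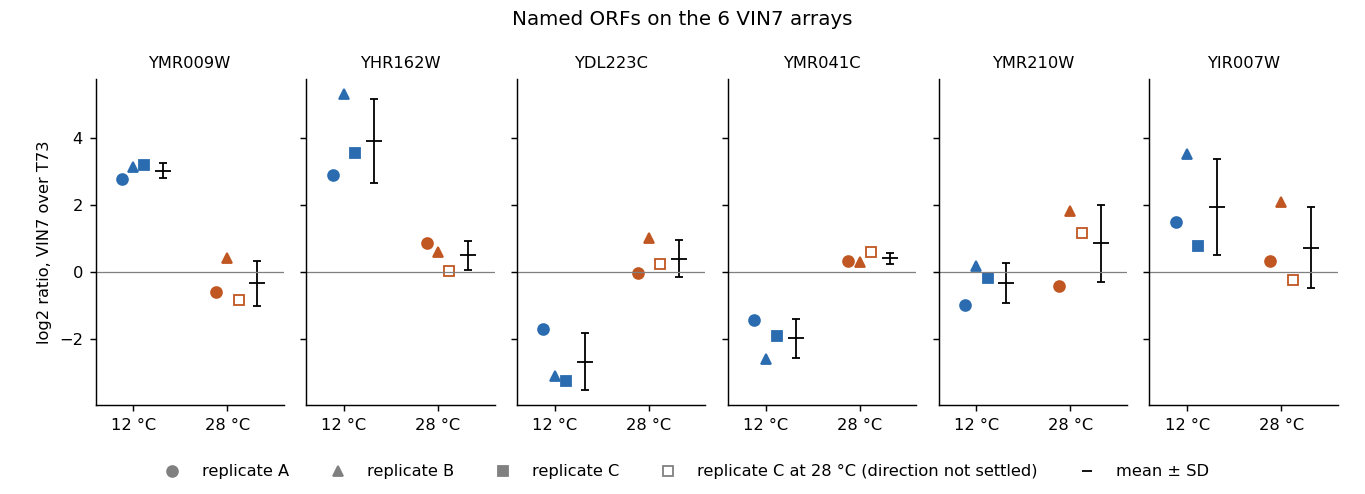
Log2 ratio of VIN7 over T73 (vertical axis) on each array at 12 °C (blue) and 28 °C (orange) for the 6 ORFs given by name, with mean ± SD (n = 3 each) beside the points; the open square is the array of unsettled direction. The groups do not overlap for the 4 ORFs on the left, and they overlap for YMR210W and YIR007W.

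The study places YMR210W in ethyl ester synthesis and YIR007W among the glycosidases and glucanases. At 12 °C the paper states down regulation of YMR210W in Lalvin W27, not in VIN7, and up regulation of YIR007W in VIN7. These directions were used to choose the likely sign of the ratios, so the signs of both ORFs are not independent evidence. YMR210W, on the right arm of chromosome XIII, had log2 ratios of -1.01, 0.16 and -0.17 at 12 °C, against -0.43, 1.82 and 1.16 at 28 °C. The groups overlapped, since 28 °C replicate A lay below the highest 12 °C array. The difference was -1.19 with a standard error of 0.69 (95% interval between -2.68 and 0.30), with a limma adjusted p of 0.33. It was -0.42 with the sign of replicate C at 28 °C turned, -0.71 without 28 °C replicate B and -1.84 without 28 °C replicate A.

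YIR007W, on the right arm of chromosome IX, had log2 ratios of 1.49, 3.52 and 0.76 at 12 °C, against 0.32, 2.09 and -0.24 at 28 °C. Replicate B was the highest array at each temperature, and the groups overlapped. The difference was 1.20 with a standard error of 0.86 (95% interval between -0.65 and 3.06), with a limma adjusted p of 0.43. With single arrays left out the difference lay between 0.40 (without 12 °C replicate B) and 1.89 (without 28 °C replicate B), with 0.72 without 28 °C replicate C. For both aroma ORFs the interval held 0 and also differences of more than 2-fold.

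Whether the dependence on temperature was particular to VIN7 was tested against Lalvin W27, the other hybrid, whose ratios were also taken against T73 at 12 and 28 °C. The source field in the labels of the W27 28 °C arrays gives 12 °C, whereas their titles and descriptions give 28 °C, which was used, and all W27 values here rest on it. For the difference between both hybrids' temperature differences, limma called 0 of 6149 ORFs at an adjusted p under 0.05, with a lowest adjusted p of 0.92. At an unadjusted p under 0.05 there were 208 ORFs (3.38%), 99 with the higher value in VIN7 and 109 with the lower. This share is below the fraction of 0.05 that such a threshold gives on average where nothing differs. The count therefore does not show that single ORFs differ between the hybrids. The number was 153 without replicate C of VIN7 at 28 °C, 132 with its sign turned, 434 without VIN7 12 °C replicate C and 417 without VIN7 28 °C replicate A. The standard error of this difference had a median of 0.971 on the log2 scale, larger than the 0.687 for the difference within VIN7.

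Among the named ORFs, YMR009W had a temperature difference of 3.37 in VIN7 and -0.34 in W27, and the hybrids differed by 3.71 with a standard error of 0.77 (limma adjusted p = 0.92). YHR162W had 3.43 in VIN7 and 0.82 in W27. YDL223C had -3.09 in VIN7 and -2.40 in W27, and YMR041C had -2.39 in VIN7 and -1.79 in W27. These 4 ORFs were chosen on the VIN7 difference, and the difference between the hybrids passed the test in none of them (limma adjusted p between 0.92 and 0.93). Both hybrids were set against the same strain at each temperature, and low values in both hybrids cannot be told apart from a high value in T73 at 12 °C. YMR210W had -1.19 in VIN7 and -1.10 in W27, and YIR007W had 1.20 in VIN7 and 0.28 in W27.

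Gene content is the same at both temperatures, so both sides of the difference share the same gene copies. By chromosome, the median difference between temperatures lay between -0.34 (VI, 130 ORFs) and 0.12 (III, 204 ORFs), against -0.14 over all ORFs. It was below 0 for 12 of the 16 chromosomes. With the sign of replicate C at 28 °C turned, the range was -0.19 (VI) to 0.32 (III), 10 chromosomes were below 0, and II and XIII changed their sign. Without that array, the range was -0.61 (II) to 0.02 (XII). The share of ORFs at an unadjusted p under 0.05 with a higher ratio at 12 °C ran from 4.66% on V to 12.9% on XII, beside 8.62% over all, and the share with a lower ratio from 4.76% on I to 15.9% on II, beside 11.1% over all.

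Chromosome III, which lacks the S. kudriavzevii copy in VIN7, had a median log2 ratio of 0.72 at 12 °C and 0.60 at 28 °C. Its medians on single VIN7 arrays were 1.02, 0.66 and 0.31 at 12 °C, against 0.58, 1.66 and 0.11 at 28 °C. On W27 arrays they were 0.30, 1.00 and 0.61 at 12 °C, against 0.99, 0.62 and -0.0035 at 28 °C. The chromosome lies within a rise along the order of names, described below. The part of the lost copy in its level cannot be told apart from that rise and was not tested. A set of 31 old-style names on this chromosome (YCLX and YCRX), of which 30 were used, had medians of 1.28, 1.34 and 0.74 at 12 °C, against 0.75, 1.38 and -0.30 at 28 °C. Their median difference was 1.00 as deposited and 0.85 with the sign of replicate C at 28 °C turned, while the other 174 ORFs of chromosome III had 0.01 and 0.23. It depended on single arrays and on missing values, with -0.11 without 28 °C replicate C, 0.15 without 28 °C replicate A, 0.57 without 12 °C replicate A, 0.59 without 12 °C replicate B and -0.14 over the 11 of these ORFs with a value on all 6 arrays. By unadjusted p, 4 of the 30 were higher (13.3%) and 2 lower (6.67%) at 12 °C, beside 8.62% and 11.1% over all ORFs. Counts this small do not set these names apart from all ORFs. Chromosome I had medians of 1.24, 0.66 and 0.01 at 12 °C, against 0.64, 0.92 and -0.84 at 28 °C, the lowest chromosome median of any VIN7 array being that of 28 °C replicate C.

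**Figure D4:**
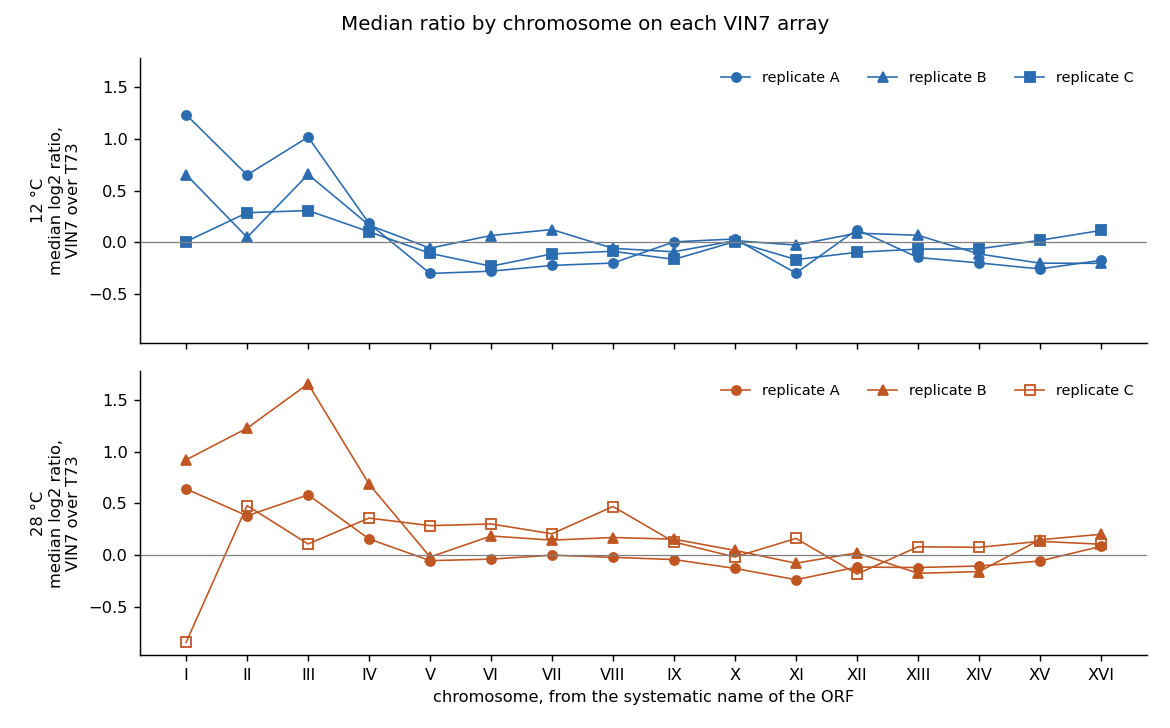
Median log2 ratio of VIN7 over T73 (vertical axes) by chromosome on each array at 12 °C (above) and 28 °C (below). Chromosomes I, II and III have the 3 highest medians on 3 of the 6 arrays (12 °C replicate A, 28 °C replicates A and B), with 1.24 for I on 12 °C replicate A and 1.66 for III on 28 °C replicate B, and chromosome I is at -0.84 on 28 °C replicate C.

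The higher medians of the first chromosomes did not end at a chromosome border. Along the alphabetical order of names in blocks of 100, the median ratio was above 0 in all 12 of the first blocks at both temperatures. These 1200 names cover chromosomes I to III and 460 used ORFs of IV. Their medians were 0.70, 0.30 and 0.25 on the 12 °C arrays, against 0.41, 1.23 and 0.27 on the 28 °C arrays. All later names had medians of -0.15, -0.05 and -0.06 at 12 °C, against -0.07, 0.06 and 0.13 at 28 °C. Within chromosome IV, the median was 0.33 at 12 °C and 0.49 at 28 °C for names in the first blocks, and -0.10 at 12 °C and 0.14 at 28 °C for the rest.

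The step was also present on W27 arrays, with medians over the first names between -0.04 and 0.68 and over the later names between -0.23 and 0.29. It was small on W27 28 °C replicates B (0.35 against 0.29) and C (-0.04 against -0.12). In the difference between temperatures the step nearly cancelled, with a median of -0.14 for the first names and -0.14 for the later ones, and 0.06 and -0.03 with the sign of replicate C turned. Without that array it did not cancel, with -0.55 for the first names and -0.13 for the later ones. The first blocks were chosen after their values were seen. The part of a technical trend in these values was not tested. With a running median along the names removed, limma called 1 ORF, YMR009W (adjusted p = 0.042), and 668 ORFs were higher and 645 lower at an unadjusted p under 0.05.

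**Figure D5:**
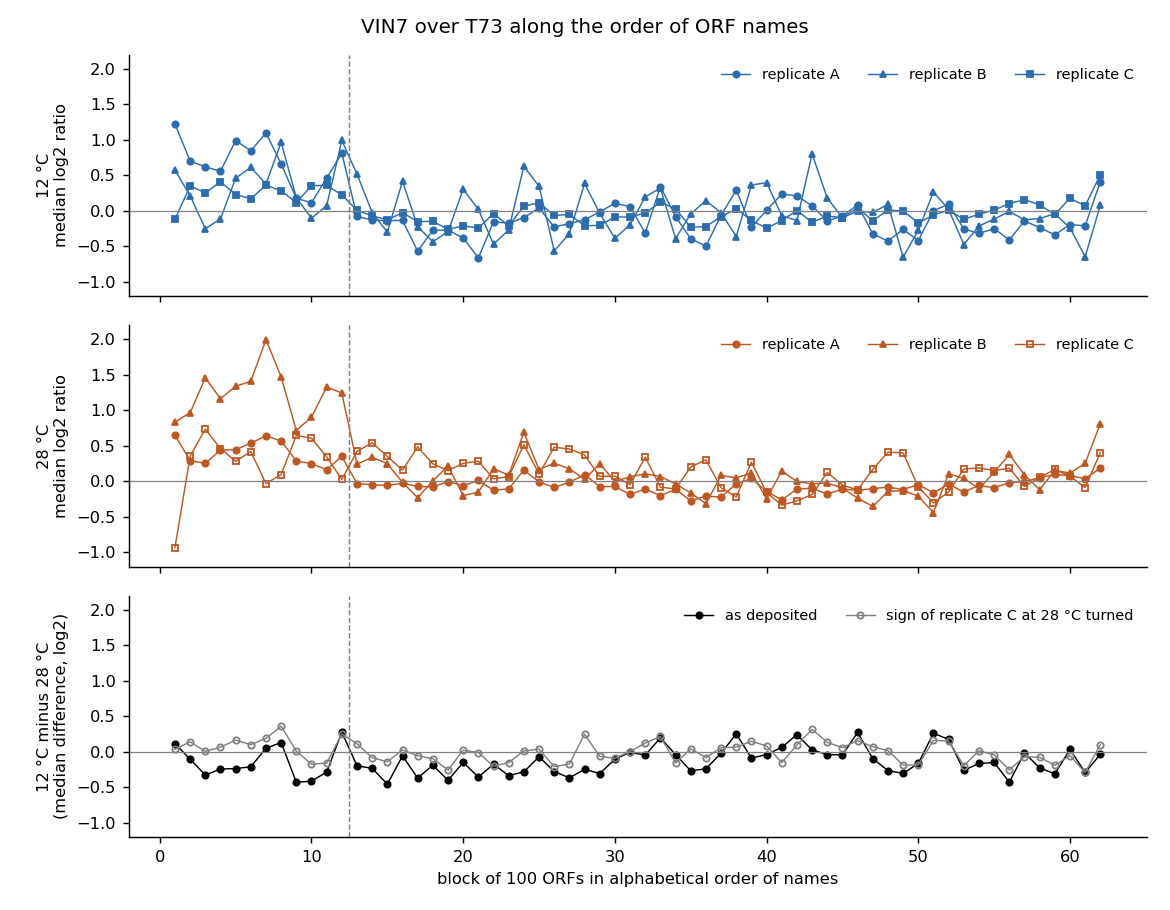
Median log2 ratio of VIN7 over T73 in blocks of 100 ORFs in alphabetical order of names (horizontal axis) on each array at 12 °C (above) and 28 °C (middle), and the median difference 12 °C minus 28 °C (below). The dashed line marks the end of the first 12 blocks, whose median was 0.70 on 12 °C replicate A and 1.23 on 28 °C replicate B, against -0.15 and 0.06 for the later names.

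Other properties were read from the names, beside a median difference of -0.14 over all ORFs. ORFs on the W strand had a median difference of -0.10 (n = 3089) and those on the C strand -0.17 (n = 3067). The 10 outermost names of each chromosome arm had a median difference of -0.11 (n = 318), against -0.15 for all other names (n = 5810), although their ratio was higher at both temperatures, 0.18 at 12 °C and 0.34 at 28 °C, against -0.01 and 0.09 for the others. ORFs whose name carries a letter suffix had a median difference of -0.10 (n = 89).

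The arrays also held 2 control features that carry no yeast ORF. The spot labelled Arabidopsis had log2 ratios of 0.89, 1.57 and 0.64 at 12 °C, against -0.61, 0.28 and -1.50 at 28 °C. As deposited, and without 28 °C replicate C, its 12 °C arrays all lay above its 28 °C arrays. With the sign of 28 °C replicate C turned, that array lay above 12 °C replicates A and C, and the groups overlapped. The spot labelled 3XSSC had -1.17, -0.71 and -0.51 at 12 °C, against -0.81, -1.97 and -1.25 at 28 °C, with arrays that overlapped. As deposited, the difference of the Arabidopsis medians was as large as that of many ORFs counted under the 2-fold rule. With the sign of 28 °C replicate C turned, it was below 2-fold. Whether such a shift in signal enters the ratios of ORFs was not tested.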

How the data were processed

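Values were deposited as log2 ratios, 1 for each feature of an array. The authors made them from GenePix scans with Acuity software; their steps included a manual print tip correction, a global background correction, a normalization within each array and a filter on spot flags. Every table column was matched to an array (0 were not). Spot intensities were not analysed here. Signs were turned to hybrid over T73. ORFs with values on at least 2 arrays in both VIN7 groups entered limma (version 3.58.1, R 4.3.3; lmFit and eBayes on 4 group means over 12 arrays, Benjamini-Hochberg adjustment), after tests on simulated data. Python (3.11.15) with pandas (2.3.3) and numpy (2.4.6) gave the summaries, and matplotlib (3.10.9) the figures. The members, lists and tests were chosen with earlier results of these data known. With no ORF called, the rule for names took 2 ORFs in each direction by lowest unadjusted p among those with 6 values, none beyond 10 in size, and arrays apart under both signs of replicate C at 28 °C, plus YMR210W and YIR007W. Systematic names were not paired with gene symbols, so lists of pathways and other aroma genes were not analysed here. Same-letter VIN7 arrays at 12 and 28 °C had correlated deviations from their group means as deposited (r = 0.31, 0.22 and 0.57), but not with the sign of replicate C at 28 °C turned (-0.21, 0.05 and -0.40). Deviations within a group cancel out, so these r values are tied to each other. Alternatives were leaving out each VIN7 array, recentring, scaling, extreme values set to missing, array weights, a robust prior, other thresholds, means for medians, a letter term and a fit of the 6 VIN7 arrays. A letter term within each hybrid (also with the sign turned), removal of a running median over 51 names, and recentring with the sign turned were added after seeing the data.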

Additional observations from a re-analysis of the deposited data

How the results depend on the processing

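The number of ORFs called between temperatures, 0 higher and 0 lower as deposited, was 1 and 0 with array weights, 1 and 1 with recentring, 0 and 1 with a replicate block for the letter, 113 and 55 with a replicate block within each hybrid, and 1 and 0 with the trend along names removed; it was 0 with every other alternative that kept all arrays, and 0 to 74 higher and 0 to 14 lower when each array was left out. At an unadjusted p under 0.05, leaving out each array gave 253 to 748 ORFs higher and 381 to 908 lower; scaling gave 459 and 404, turning the sign of replicate C at 28 °C gave 88 and 157, recentring with that sign turned gave 96 and 164, and the replicate block within each hybrid with it turned gave 78 and 134. The 2-fold counts were 763 to 1382 higher and 1166 to 1804 lower with each array left out, 1635 and 2085 at 1.5-fold, 328 and 288 at 4-fold, 719 lower with the sign turned and 664 lower with recentring added. Counts without overlap were 598 to 1110 higher and 871 to 1368 lower with each array left out, 161 and 291 with the sign turned, and 161 and 301 with recentring added. For the difference from W27 the unadjusted counts were 153 to 434 with each VIN7 array left out. They were 132 with the sign turned, 124 with recentring added, 480 with the replicate block within each hybrid and 93 with the sign turned as well. Only VIN7 arrays were left out, here and in the counts above, and no W27 array was. The causes were not tested, except that fewer arrays overlap less often by construction. The other 128 of 170 alternative counts were within 1.5 times the count as deposited. No named ORF changed direction, and the adjusted p of YMR009W was under 0.05 in 5 alternatives.

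The lists of pathways were not run. The 3 arrays at 28 °C agreed poorly, and 3 arrays against 3 cannot reach a two-sided exact permutation p below 0.1 for a single ORF.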
